A study of Mus musculus with 54 samples.

Results

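AMPA and kainate receptors are ionotropic glutamate receptors that are not activated by NMDA. Their subunits are encoded by 4 genes, *Gria1* to *Gria4*, and 5 genes, *Grik1* to *Grik5*. These 9 genes were taken by their Ensembl identifiers, by a rule that uses no measured value, from a table of 30031 genes counted by RNA-seq in the mouse suprachiasmatic nucleus (SCN), the hypothalamic nucleus that holds the master circadian clock. All 9 were in the table and all 9 were among the 18941 genes with enough reads to be tested. The SCN was cut out by laser-capture microdissection from male C3H/HeH mice of 10-12 weeks, kept under 12 hr of light and 12 hr of dark, at zeitgeber time (ZT) 2, 6, 10, 14, 18 and 22, where lights come on at ZT0. Each timepoint had 3 replicates (A, B and C), each a pool of tissue from 5 mice. Every library is labelled WT (wild type), and all groups had the same strain, sex and lighting and no treatment. The pools hold whole SCN tissue, so neurons and glia were measured together, and fewer cells of a type and less RNA per cell cannot be told apart.

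Fast excitatory transmission in the brain runs mostly through AMPA receptors, which are assemblies of the *Gria* products. A receptor that contains the edited *Gria2* product passes little calcium, while one without it passes calcium, so that the subunit mix sets what the channel does. Kainate receptors are built from *Grik1*, *Grik2* and *Grik3* products, which can form a channel alone, and from *Grik4* and *Grik5* products, the high-affinity subunits, which need one of the others. In the SCN, light reaches the clock through glutamate released by the axons of retinal ganglion cells, and AMPA, kainate and NMDA receptors on SCN cells receive it.

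The place in these genes that decides calcium passage is a glutamine codon in the loop that lines the pore, the Q/R position, which RNA editing turns into an arginine codon in *Gria2* and, in part, in *Grik1* and *Grik2*. The 30 coding bases around it are shown 5′ to 3′ with that codon in capitals, as read from the GENCODE M21 transcripts (GRCm38), for the 4 AMPA subunits and for the pair of kainate subunits that can be edited there.
Gria1: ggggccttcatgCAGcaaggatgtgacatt
Gria2: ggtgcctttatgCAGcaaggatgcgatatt
Gria3: ggtgcttttatgCAGcaaggatgtgatatt
Gria4: ggtgcctttatgCAAcaaggatgtgacatt
Grik1: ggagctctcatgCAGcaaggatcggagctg
Grik2: ggagctctcatgCAGcaaggttctgagctc
The *Gria1* stretch lies at chr11:57243082-57243111 on the plus strand, the *Gria2* stretch at chr3:80706896-80706925 on the minus strand, the *Gria3* stretch at chrX:41610253-41610282 on the plus strand and the *Gria4* stretch at chr9:4464122-4464151 on the minus strand, each inside 1 coding exon. In *Grik1* and *Grik2* an intron falls within the stretch, and the codon itself lies at chr16:87940542-87940544 and chr10:49244329-49244331, both on the minus strand. The genome carries a glutamine codon at this place in all 9 genes, written CAG in 8 of them and CAA in *Gria4*. Between AMPA subunits 26 to 28 of the 30 bases were the same, between kainate subunits 18 to 27, and between the families 20 to 23. Over their whole length the AMPA genes span chr11:57011387-57330244 (*Gria1*), chr3:80681450-80802835 (*Gria2*), chrX:41400854-41678601 (*Gria3*) and chr9:4417896-4796234 (*Gria4*), and the kainate genes chr16:87895900-88290265 (*Grik1*), chr10:49094833-49788766 (*Grik2*), chr4:125490700-125714173 (*Grik3*), chr9:42518135-42944493 (*Grik4*) and chr7:25009849-25072346 (*Grik5*). Reads were counted per gene, so edited and unedited transcripts, and the alternatively spliced forms known as flip and flop, are summed in every value given here.

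Between 15412981 and 35820945 reads per replicate were counted on genes, and the members held from 2827 reads over the 18 replicates for *Grik4* to 254604 for *Gria2*. The lowest count of any member was 35 reads, of *Grik4*, in 1 replicate. Expression is given in CPM, the reads of a gene relative to the TMM-scaled size of its library, and q is the Benjamini-Hochberg adjusted p of edgeR's quasi-likelihood test over all tested genes, called at 0.05. The study's principal component plot has 3 library clusters, 1 of ZT22 and ZT2, 1 of ZT6 and ZT10, and 1 of ZT14 and ZT18. Its legend names both timepoint and sequencing batch, so that a difference between clusters cannot be told apart from batch. All 10 SCN neuron markers were measured in every timepoint, with summed levels from 1634 CPM in a ZT14 replicate to 5884 CPM in a ZT6 replicate.

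Per kilobase of exon, which allows genes to be compared, *Gria1* was the most abundant member at 66.2 CPM per kb (mean of the 6 timepoints), followed by *Gria2* at 34.4 and *Gria4* at 9.08. *Grik1* and *Gria3* had nearly the same mean level, 5.82 CPM per kb for each, and over the 18 libraries *Gria3* ran from 0.831 to 14.7 while *Grik1* ran from 2.09 to 11.1. *Grik3* stood at 3.92 CPM per kb, *Grik5* at 2.82 and *Grik2* at 2.57, and their ranges over libraries overlapped. *Grik4* was the lowest member at 0.960 CPM per kb. Among the tested genes these levels spanned the 34.2nd (*Grik4*) to the 94.8th (*Gria1*) percentile.

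Of the 9 members, 8 changed with time (edgeR q under 0.05), 3 of the 4 AMPA subunits and all 5 kainate subunits, against 44% of all tested genes. *Gria3* had the smallest q and the widest range of the 9. It was measured at 116, 82.5 and 66.6 CPM in replicates A, B and C at ZT2, at 13.4, 8.19 and 10.3 CPM at ZT6, and at 14.1, 15.6 and 29.4 CPM at ZT10. At ZT14 the replicates gave 91.0, 71.6 and 82.7 CPM, at ZT18 24.9, 30.6 and 26.2 CPM, and at ZT22 72.7, 133 and 145 CPM. Every replicate of ZT22, ZT2 and ZT14 lay above every replicate of ZT18, ZT10 and ZT6, with no overlap between these sets of timepoints. The mean at ZT22 (117 ± 38.69 CPM, SD, n = 3) was 10.99-fold that at ZT6 (10.6 ± 2.65 CPM), with edgeR q = 5.14e-07 for time.

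*Gria2*, whose edited product makes AMPA receptors nearly impermeable to calcium, had a similar order of timepoints over a narrower range. It gave 897, 829.6 and 605 CPM at ZT2, 230.3, 298 and 283 CPM at ZT6, and 324, 275 and 268 CPM at ZT10. In the dark it gave 601, 558 and 535 CPM at ZT14, 345, 429.7 and 294 CPM at ZT18, and 711, 1067 and 1063 CPM at ZT22. The 3 timepoints ZT22, ZT2 and ZT14 again lay above the other 3 with no overlap, and the replicates of ZT18, ZT10 and ZT6 overlapped with their neighbours in that order. The mean was 947 ± 204 CPM at ZT22 and 270.3 ± 35.4 CPM at ZT6, a 3.504-fold difference (edgeR q = 1.63e-06 for time).

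*Gria1*, the other subunit with high levels, was lowest in the libraries of ZT6 and ZT10. Its replicates A, B and C gave 496, 527 and 474 CPM at ZT2, 278, 289 and 319.9 CPM at ZT6, 258, 221 and 273 CPM at ZT10, 470.2, 462 and 513 CPM at ZT14, 444, 396 and 348 CPM at ZT18, and 357, 522 and 559 CPM at ZT22. The timepoints ZT2, ZT14, ZT22 and ZT18 overlapped with their neighbours in order of level, while ZT6 and then ZT10 lay apart below them. The highest mean, 499 ± 26.3 CPM at ZT2, was 1.99-fold the lowest, 250.5 ± 26.8 CPM at ZT10 (edgeR q = 0.000257 for time).

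*Gria4*, the fourth AMPA subunit, did not pass the time test (edgeR q = 0.311). Its means lay between 50.7 ± 8.47 CPM at ZT6 and 72.0 ± 10.0 CPM at ZT2, and the replicates of every timepoint overlapped with those of its neighbour in the order of means.

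Among the kainate subunits that form channels alone, *Grik2* and *Grik3* were highest at ZT14 and *Grik1* at ZT2. *Grik1* gave 51.6, 74.8 and 71.9 CPM in replicates A, B and C at ZT2 and 49.7, 41.4 and 43.8 CPM at ZT22, against 28.3, 25.2 and 46.0 CPM at ZT6, 33.9, 39.4 and 22.0 CPM at ZT10, 35.9, 28.4 and 29.0 CPM at ZT14, and 36.4, 33.1 and 14.0 CPM at ZT18. The ZT2 replicates lay above all others, and from ZT22 down each timepoint overlapped with the next. The mean was 66.1 ± 12.7 CPM at ZT2 and 27.9 ± 12.1 CPM at ZT18, where replicate C, the shallowest library, had the lowest level of the 3 (2.37-fold, edgeR q = 0.0180 for time). Without replicate B of ZT2 the call was lost (edgeR q = 0.0850).

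*Grik2* gave 53.2, 52.1 and 40.4 CPM at ZT14, 29.0, 36.5 and 49.1 CPM at ZT18, 39.6, 44.7 and 33.2 CPM at ZT2 and 35.1, 31.3 and 39.96 CPM at ZT22. These 4 timepoints overlapped with one another in order of level, and lay above ZT6 with 16.8, 29.2 and 21.0 CPM and ZT10 with 18.1, 19.1 and 23.6 CPM, except that the lowest ZT18 replicate fell just under the highest of ZT6. Its highest mean, 48.6 ± 7.07 CPM at ZT14, was 2.40-fold its lowest, 20.2 ± 2.95 CPM at ZT10 (edgeR q = 0.00197 for time). *Grik3* gave 50.5, 64.5 and 52.2 CPM at ZT14, and no replicate of the other timepoints, from 18.7 to 44.4 CPM, reached these. Its mean was 55.8 ± 7.64 CPM at ZT14 and 22.6 ± 4.001 CPM at ZT10, a 2.47-fold difference (edgeR q = 0.00955 for time), and without replicate B of ZT14 edgeR q was 0.0539.

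The high-affinity subunits had different orders. *Grik5* was highest at ZT6, with 14.6, 25.0 and 48.2 CPM in replicates A, B and C, and lowest at ZT2, with 3.56, 5.21 and 10.2 CPM. The ZT10 replicates gave 14.0, 19.3 and 24.1 CPM, those of ZT14 14.3, 15.1 and 14.9 CPM, those of ZT18 6.17, 6.36 and 17.3 CPM, and those of ZT22 7.75, 10.2 and 5.99 CPM. Neighbouring timepoints overlapped throughout, and ZT6 and ZT2 did not (29.3 ± 17.2 against 6.31 ± 3.44 CPM, 4.64-fold, edgeR q = 0.00629 for time). *Grik5* was thus lowest in the pair of timepoints in which *Gria2* and *Gria3* were highest.

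*Grik4*, with the fewest reads, gave 7.78, 11.2 and 10.5 CPM at ZT14, 4.38, 9.95 and 6.72 CPM at ZT6 and 4.89, 5.29 and 7.96 CPM at ZT22. The remaining timepoints had lower means and overlapped with one another, from 2.14 to 5.31 CPM. The mean at ZT14 was 9.82 ± 1.80 CPM and at ZT10 3.74 ± 0.306 CPM, a 2.63-fold difference. Its edgeR q for time was 0.0393, and leaving out single replicates lost the call in 12 of 18 fits, with q up to 0.121, as did upper-quartile scaling, no filter on low counts and reads recovered from the normalized table.

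**Figure D1:**
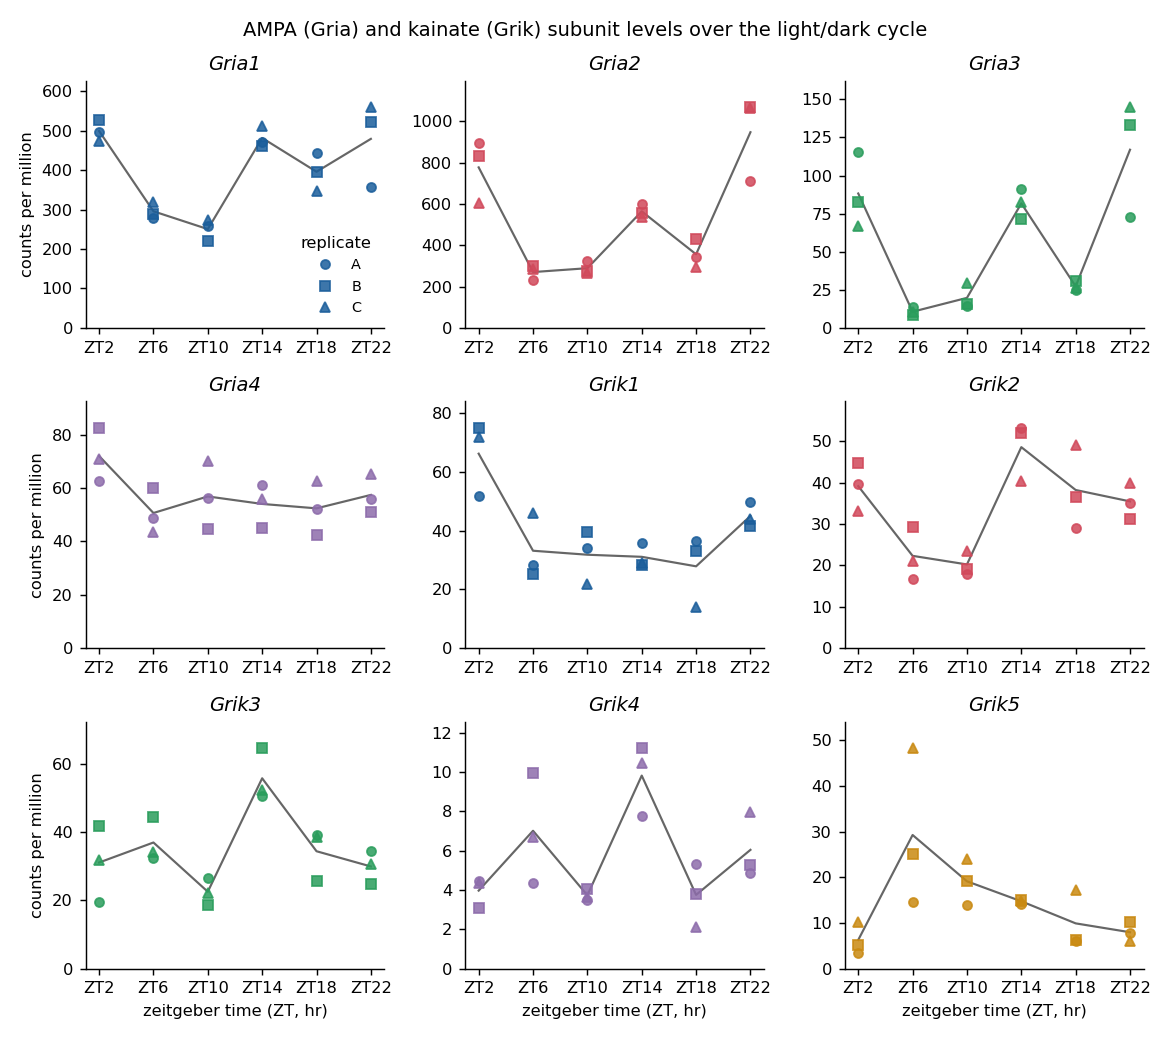
Level of each subunit gene (y axis, CPM, from 0) at the 6 zeitgeber times (x axis), with 1 point per replicate, its shape giving the replicate letter, and a grey line through the means. *Gria3* and *Gria2* were high at ZT22, ZT2 and ZT14 and low at ZT6, ZT10 and ZT18, *Gria4* had means between 50.7 and 72.0 CPM, and *Grik5* was highest at ZT6.

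The members differed in how much of their variation over time lay between the library clusters. The same measure over all tested genes is not given here, so the values do not set the members apart from other genes. Of the variance among the 6 timepoint means of log2 CPM, the share that lay between the 3 clusters was 91.4% for *Gria1*, 90.4% for *Gria2*, 93.3% for *Grik2*, 85.8% for *Grik5*, 84.7% for *Grik1* and 82.8% for *Gria3*. It was 60.5% for *Gria4*, which did not pass the time test, while *Grik3* at 46.2% and *Grik4* at 5.39% varied mainly inside the clusters.

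The values of *Grik1* at ZT6 and ZT10 also depended on which deposited table was read. Whole reads could be recovered from the study's normalized table, and for ZT2, ZT14, ZT18 and ZT22 they were the same as the counted reads of *Grik1* (100%). At ZT6 the raw table held 653, 531 and 971 *Grik1* reads in replicates A, B and C and the normalized table held 349, 232 and 416, and at ZT10 the raw table held 699, 909 and 466 and the normalized table held 424, 568 and 217. Over these 6 libraries *Grik1* kept 52.2% of its reads, while the other 8 members kept between 87.7% and 98.6% and the median of 15736 genes was 90.6%; 8.48% of those genes kept as little as *Grik1*. With the recovered reads *Grik1* was lowest at ZT6 (16.96 ± 4.84 CPM) rather than at ZT18, and its range widened to 3.69-fold, with edgeR q = 0.0013 for time. The cause of the difference between the tables was not tested.

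**Figure D2:**
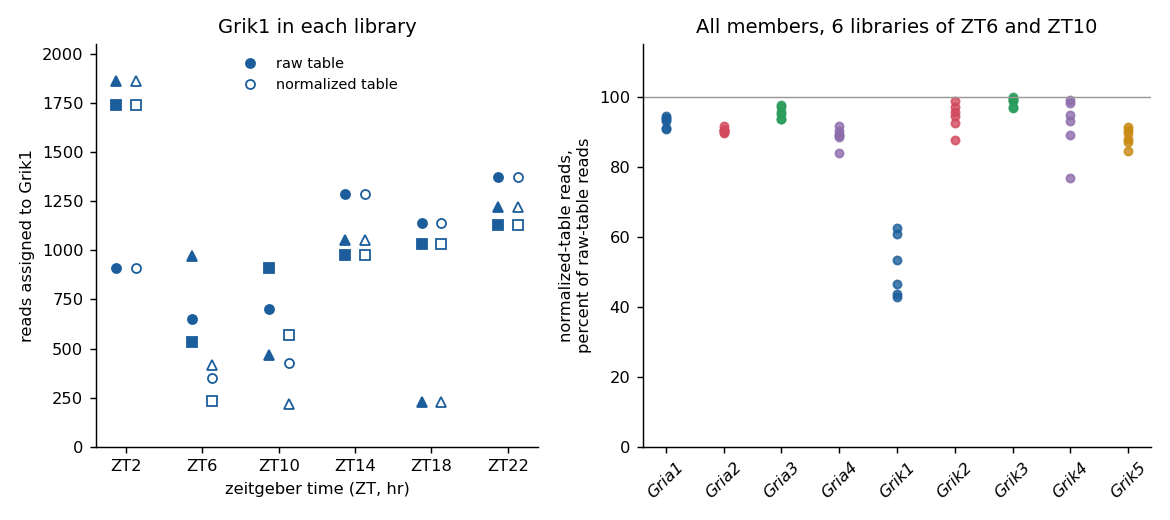
Left, reads assigned to *Grik1* (y axis, from 0) in each library by timepoint, filled for the raw table and open for the normalized table, with marker shape giving the replicate. Right, reads in the normalized table as a percent of those in the raw table for each member (x axis), 1 point for each of the 6 libraries of ZT6 and ZT10, where *Grik1* kept 52.2% over these libraries and the other members at least 87.7%.

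Cycling was scored with JTK_CYCLE, a rank test for a 24 hr wave with an exact null distribution, among genes past the time test. Of the 9 members 3 were called cycling, *Gria1*, *Gria2* and *Grik1*, against 29.8% of all tested genes. *Gria2* had JTK_CYCLE p = 0.00473 (exact) and *Gria1* p = 0.00942 (exact), both with the best fit at ZT22, and *Grik1* had p = 0.0178 (exact) with the best fit at ZT2. *Gria3*, with the widest range, had p = 0.115 (exact), and *Grik3* and *Grik4* had p = 1.0 (exact). The call of *Grik1* was lost when replicate A or replicate B of ZT2 was left out. With a cosinor regression in place of JTK_CYCLE 5 members were called. The share of all tested genes called that way is not given here, so this count does not set the members apart.

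The study describes a synaptic module with peaks at ZT14 and ZT22. That module came from co-expression clustering, and whether the members belong to it is not given here. A separate rule asked that a gene pass the time test and have its pair of highest means at ZT14 and ZT22. It took in 2.15% of all tested genes and no member. *Gria2* and *Gria3* had a higher mean at ZT2 than at ZT14, *Grik3* and *Grik4* were highest at ZT14 with ZT6 second, and *Grik2* was highest at ZT14 with ZT2 second. This rule uses no test between the timepoints, so differences that do not cross the clusters were tested directly. Which libraries shared a sequencing batch is not given in the sources used here.

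Between ZT14 and ZT18, both in the dark, *Gria3* was higher at ZT14 by 1.58 ± 0.31 on the log2 scale (SE), a 3.00-fold difference from 27.3 ± 3.00 to 81.7 ± 9.72 CPM (edgeR q = 0.0293). It was the only member called, against 0.57% of all tested genes, and its 3 ZT14 replicates lay above its 3 ZT18 replicates. All 9 members had a positive log2 difference, although that of *Gria4* turned negative under RLE or upper-quartile scaling, with DESeq2 and with no filter, with a median of 0.58 against 0.01 over all tested genes. *Grik4* differed by 1.38 ± 0.43 (edgeR q = 0.148), *Grik3* by 0.70 ± 0.26 (edgeR q = 0.237) and *Gria2* by 0.66 ± 0.20 (edgeR q = 0.124), none of them called. With DESeq2, which called 4.46% of all tested genes here, *Gria2*, *Gria3* and *Grik4* were called. An unadjusted p under 0.05 was found for these 3 and *Grik3*, against 13.5% of all tested genes. *Gria1* (0.28 ± 0.17), *Grik2* (0.35 ± 0.24), *Grik5* (0.58 ± 0.47), *Grik1* (0.15 ± 0.32) and *Gria4* (0.05 ± 0.21) had unadjusted p of 0.105 or more. The call of *Gria3* was lost whenever 1 of the 6 replicates compared was left out, with log2 differences over all 18 such fits between 1.5 and 1.68. In 5 of those 6 fits at most 2 of all genes were called, and without replicate A of ZT18 86 were.

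Between ZT22 and ZT2, on either side of lights on, no member was called by edgeR or by DESeq2 and none had an unadjusted p under 0.05, against 0.0317%, 0.18% and 3.59% of all tested genes by these criteria. The largest log2 differences were 0.61 ± 0.43 for *Grik4* and -0.56 ± 0.32 for *Grik1*, and *Gria3* differed by 0.41 ± 0.30, with 0.205 to 0.657 when 1 replicate was left out. Between ZT6 and ZT10, both in the light, no member was called by edgeR or DESeq2 (0.0475% and 1.33% of all tested genes), and 3 of 9 had an unadjusted p under 0.05, against 10.8% of all tested genes. These were *Gria3*, lower at ZT6 by 0.89 on the log2 scale (difference -0.89 ± 0.31, edgeR q = 0.365), *Grik3* (0.71 ± 0.26, edgeR q = 0.389) and *Grik4* (0.91 ± 0.43, edgeR q = 0.462). The difference of *Gria3* was -0.48 without replicate C of ZT10, and that of *Grik4* was 0.57 without replicate B of ZT6.

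The contrast of ZT14 and ZT22 with ZT18 and ZT2 takes 1 timepoint on either side from each cluster except that of ZT6 and ZT10. It gave no call among the members by edgeR, against 0.148% of all tested genes, and 3 of 9 unadjusted p under 0.05, against 10.6%. *Gria3* was higher at ZT14 and ZT22 by 1.00 ± 0.21 on the log2 scale (edgeR q = 0.0625), *Grik4* by 0.99 ± 0.30 (edgeR q = 0.190) and *Gria2* by 0.47 ± 0.14 (edgeR q = 0.162). DESeq2, which called 2.43% of all tested genes, called *Gria3* and *Grik4*, and edgeR called *Gria3* when genes were filtered at 10 counts in every replicate or not filtered at all. *Gria1* differed by 0.11 ± 0.12, *Gria4* by -0.14 ± 0.15, *Grik1* by -0.20 ± 0.22, *Grik2* by 0.10 ± 0.17, *Grik3* by 0.32 ± 0.19 and *Grik5* by 0.46 ± 0.34. The median over the members was 0.32 and over all tested genes 0.01. This contrast shares its libraries with those of ZT14 against ZT18 and ZT22 against ZT2 and is not separate evidence.

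**Figure D3:**
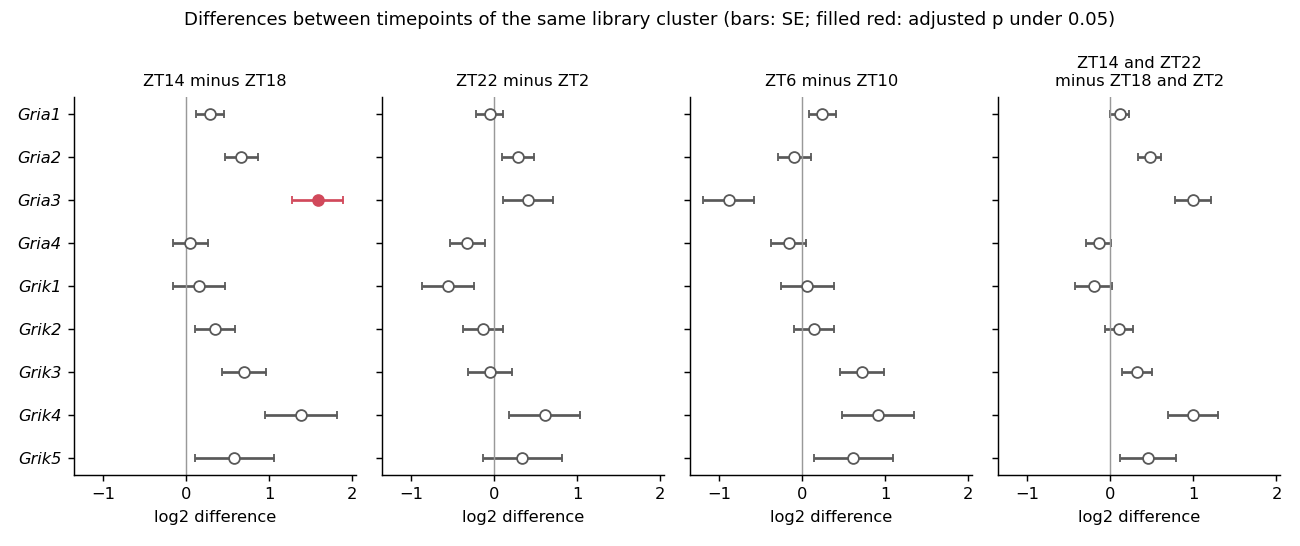
Log2 difference of each member (x axis) in the 4 comparisons inside library clusters, as points with SE bars from the edgeR fit, filled red where q was under 0.05. The filled point is *Gria3* at ZT14 against ZT18 (1.58 ± 0.31), and every member lies to the right of 0 there, *Gria4* (0.05) with a sign that flips under RLE or upper-quartile scaling.

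Markers listed for telencephalic excitatory neurons, cells that belong outside the SCN, were higher at ZT14 than at ZT18, as *Gria3* was. Their 10 genes summed to 1084, 1110 and 1689 CPM in the ZT14 replicates and to 433.5, 584 and 623 CPM in those of ZT18, and none of the 10 was at 0 in all replicates of a timepoint. Most of the sum was *Camk2a*, a kinase of excitatory synapses (868 to 1334 CPM at ZT14, 346.6 to 476 CPM at ZT18). In the study *Camk2a* is a twin-peaking gene of the SCN pathway for light-induced phase shifts. How much of the sum came from cells outside the SCN was not tested. The cortical transcription factors *Tbr1* (7.05 to 11.7 and 0.549 to 3.86 CPM) and *Emx1* (0.406 to 4.01 and 0.192 to 1.99 CPM) were low. Of the 10, *Slc17a7*, the vesicular glutamate transporter of cortical neurons, was called between ZT14 and ZT18 (log2 difference 1.98, edgeR q = 0.0352), and the median over the list was 1.18. The ZT2 replicates, with *Gria3* at 66.6 to 116 CPM against 24.9 to 30.6 CPM at ZT18, had sums of all 10 markers between 399.6 and 558 CPM, within or below the range of ZT18. Without *Camk2a*, an omission chosen after seeing the data, the other 9 markers summed to between 139 and 192 CPM at ZT2 and between 86.9 and 147 CPM at ZT18, ranges that overlapped with ZT2 mostly the higher, and to between 188 and 354 CPM at ZT14. At ZT22 the sums of all 10 were 390.0, 877 and 897 CPM, and the replicate at 390.0 CPM, A, was also the lowest of ZT22 for *Gria3*. The markers also moved with *Gria3* in the other contrasts, with a list median of 1.07 in the combined contrast, where *Slc17a7* was called (1.76 ± 0.28, edgeR q = 0.0262), and of -0.88 in ZT6 against ZT10. At ZT10 replicate C had both the highest *Gria3* level (29.4 CPM) and the highest sum of all 10 (415.7 CPM). The replicates did not go together at every timepoint. At ZT2 replicate C had the highest sum of all 10 (558 CPM) and the lowest *Gria3* level (66.6 CPM). At ZT14 replicate C had the highest sum (1689 CPM), while *Gria3* was highest in replicate A (91.0 CPM). The general neuronal list summed to between 4925 and 6553 CPM at ZT14 and between 3861 and 4975 CPM at ZT18, and 2 of its 7 genes, *Syt1* and *Rbfox3*, were called higher at ZT14. The oligodendrocyte list had similar sums, 4798 to 5998 CPM at ZT14 and 5129 to 6139 CPM at ZT18, with 0 of 8 genes called by edgeR, 2 at an unadjusted p under 0.05 and 1 called by DESeq2. The part of these cells in the *Gria3* difference was not tested.

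**Figure D4:**
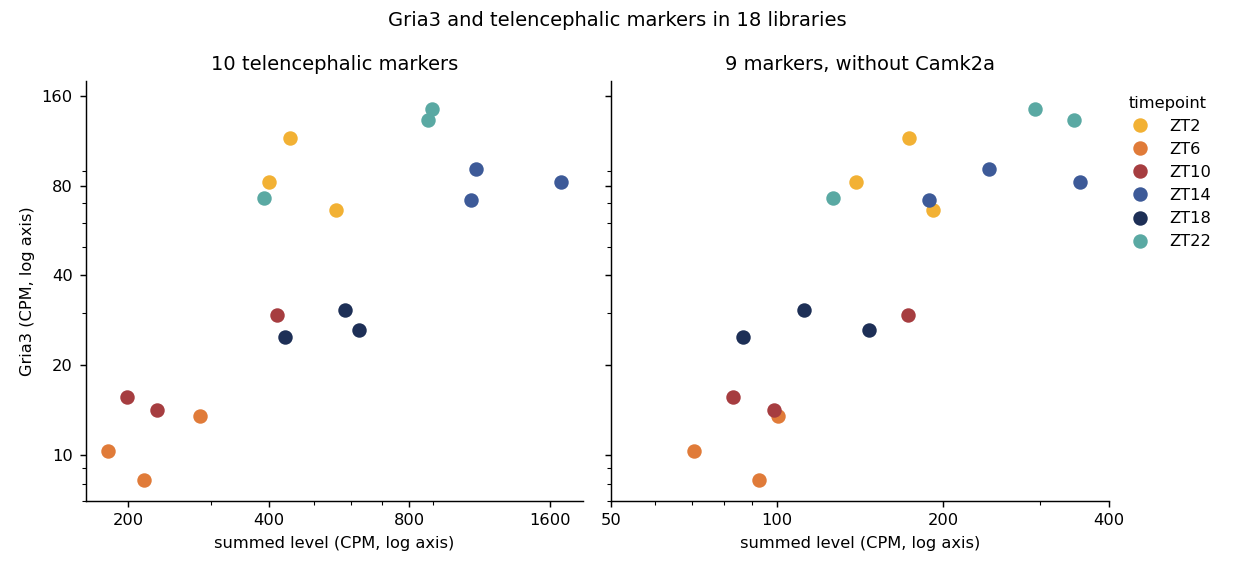
*Gria3* level (y axis, CPM, log scale) against the summed level of 10 telencephalic neuron markers (x axis, CPM, log scale) (left) or of 9 of them without *Camk2a* (right) in the 18 libraries, coloured by timepoint. The ZT14 libraries lie above and to the right of those of ZT18 in both panels, and the ZT2 libraries, at sums of 399.6 to 558 CPM, lie within or left of the ZT18 range on the left and mostly to its right, at 139 to 192 CPM, without *Camk2a*.

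The subunit mix is described as shares of reads per kb of exon with no test. *Gria1* made up 58.7% of AMPA subunit reads on average over the timepoints, *Gria2* 28.3%, *Gria4* 8.59% and *Gria3* 4.38%. The share of *Gria2* was 36.8%, 37.8% and 38.8% in the 3 ZT22 replicates and 28.7%, 32.9% and 35.7% in those of ZT2, and in each of the other 12 libraries it was between 20.8% and 28.5%. The ZT22 shares lay above those of every other library, and the lowest ZT2 share lay just above the highest of ZT14. *Gria1* reads per *Gria2* read, both per kb, were 1.30 ± 0.0473 at ZT22, 1.69 ± 0.302 at ZT2 and 2.20 ± 0.235 at ZT14, and reached 2.91 ± 0.486 at ZT18. The share of *Gria3* was between 4.99% and 7.89% at ZT22, ZT2 and ZT14 and between 1.07% and 3.91% at the other timepoints, so that these sets did not overlap. *Gria3* stood at 1.31 ± 0.430 reads per kb for each of *Gria4* at ZT22 and at 0.139 ± 0.0461 at ZT6.

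Within the kainate family *Grik1* made up 36.3% on average, *Grik3* 24.2%, *Grik5* 17.5%, *Grik2* 16.1% and *Grik4* 5.91%. *Grik1* held 53.7%, 53.8% and 55.0% in the ZT2 replicates, and between 15.1% and 45.6% elsewhere. The high-affinity pair *Grik4* and *Grik5* together held 10.4 ± 3.26% at ZT2, 16.9 ± 3.06% at ZT22, 37.2 ± 8.99% at ZT6 and 33.0 ± 7.64% at ZT10. At ZT14 *Grik3* had the largest mean share of the family, 32.6 ± 3.07%. With the recovered reads the share of *Grik1* at ZT6 was 16.96 ± 5.35% in place of 28.3 ± 6.12%. The summed kainate level was 12.0 ± 2.84 per 100 of the AMPA level at ZT2 and 9.90 ± 3.02 at ZT22, against 23.1 ± 5.32 at ZT6 and 18.6 ± 2.89 at ZT10. The AMPA sum moved more than the kainate sum, from 71.1 ± 7.22 CPM per kb at ZT10 to 161 ± 35.1 at ZT22, while the kainate sum lay between 13.1 ± 0.615 and 19.01 ± 1.16 CPM per kb.

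**Figure D5:**
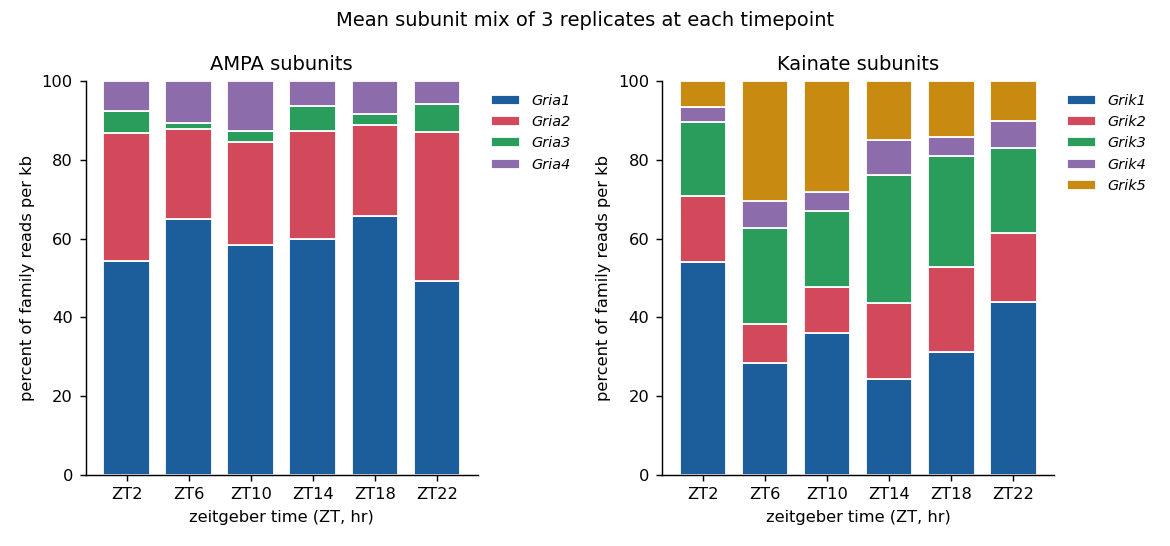
Stacked bars of the mean share of each subunit in its family's reads per kb of exon (y axis, percent) at each timepoint (x axis, 3 replicates each), AMPA on the left and kainate on the right. *Gria2* was largest at ZT22 and *Grik1* at ZT2, and the share of *Grik5* was widest at ZT6 and ZT10.

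Genes whose products work with these receptors were taken from lists of auxiliary subunits, scaffold and trafficking partners, editing enzymes and other glutamate receptors. Of 44 listed genes 42 were tested, and 28 changed with time, against 44% of all tested genes. Among 12 AMPA receptor auxiliary subunits 7 changed. *Cacng3*, a TARP that carries AMPA receptors to the synapse, was high at ZT22 (117 ± 34.4 CPM), ZT14 (95.8 ± 8.28 CPM) and ZT2 (87.3 ± 12.2 CPM) and lowest at ZT6 (19.8 ± 10.2 CPM, edgeR q = 9.82e-06). *Cnih2*, a cornichon that slows AMPA channel closing, ran from 12.9 ± 1.31 CPM at ZT2 to 59.9 ± 9.49 CPM at ZT10 (edgeR q = 7.79e-07), and *Cacng2*, the TARP stargazin, from 31.4 ± 0.809 CPM at ZT2 to 70.0 ± 2.83 CPM at ZT6 (edgeR q = 7.91e-05). Both had their lowest means at ZT2 and ZT22, where those of *Gria2* and *Gria3* were highest. *Cacng7* had few reads, with means from 0.0783 ± 0.0302 CPM at ZT10 to 6.35 ± 0.681 CPM at ZT14 (edgeR q = 0.000629).

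Of the 2 kainate receptor auxiliary subunits, *Neto1* changed, from 5.40 ± 0.834 CPM at ZT6 to 22.7 ± 9.85 CPM at ZT22 (edgeR q = 0.0012). Among 10 tested scaffold and trafficking partners 8 changed, against 44% of all tested genes. *Nsf*, the ATPase that binds the *Gria2* product and helps to keep it at the membrane, went from 307 ± 58.6 CPM at ZT6 to 1474 ± 260.4 CPM at ZT22 (edgeR q = 5.12e-07), the same timepoints at which *Gria2* was lowest and highest. *Pick1*, whose product binds that of *Gria2* and takes part in its removal from the membrane, was highest at ZT10 (28.0 ± 3.66 CPM) and lowest at ZT2 (7.20 ± 0.721 CPM, edgeR q = 0.00137). The scaffold genes *Dlg1* (42.2 ± 8.56 to 143 ± 26.9 CPM) and *Dlg2* (13.5 ± 4.09 to 69.7 ± 12.4 CPM) were both highest at ZT2, with edgeR q = 5.66e-06 and q = 0.000340.

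All 3 genes for editing enzymes changed, against 44% of all tested genes. *Adarb1*, the enzyme that edits the Q/R codon printed above, was measured at 28.7 ± 7.25 CPM at ZT6 and 78.0 ± 11.4 CPM at ZT14 (edgeR q = 0.000522) and was called cycling. *Adar* ran from 73.8 ± 14.5 CPM at ZT6 to 179 ± 43.1 CPM at ZT2 (edgeR q = 4.41e-05). *Adarb2*, a family member with no known editing activity, was at 0.331 ± 0.321 CPM at ZT18 and 10.2 ± 6.64 CPM at ZT14 and was called between them (log2 difference 4.84 ± 1.01, edgeR q = 0.0397).

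Among other glutamate receptors 5 of 6 tested NMDA subunits and 4 of 7 metabotropic receptors changed with time, against 44% of all tested genes. *Grin1*, the subunit that every NMDA receptor needs, ran from 8.07 ± 2.28 CPM at ZT2 to 90.1 ± 6.20 CPM at ZT14 (edgeR q = 3.24e-08), and was as low at ZT22 (8.41 ± 2.34 CPM), where *Gria2* and *Gria3* were highest. *Grin2b* was high at ZT22 (523 ± 222 CPM), ZT2 (374 ± 55.4 CPM) and ZT14 (366 ± 64.8 CPM) and low at ZT6, ZT10 and ZT18 (69.5 to 145 CPM, edgeR q = 1.06e-06). It was called between ZT14 and ZT18 (log2 difference 1.33 ± 0.29, edgeR q = 0.0470). *Grin2c* was highest at ZT6 (27.4 ± 11.1 CPM, edgeR q = 0.00291) and *Grin3a* highest at ZT22 and ZT2 (57.1 ± 4.04 and 57.0 ± 24.1 CPM, edgeR q = 0.00323).

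Of the metabotropic receptors, *Grm3* ran from 27.3 ± 1.95 CPM at ZT10 to 80.6 ± 18.98 CPM at ZT2 (edgeR q = 7.22e-05). *Grm4* was highest at ZT18 (18.9 ± 2.17 CPM, edgeR q = 0.0220), and *Grm2* and *Grm5* were highest at ZT14 (27.3 ± 16.9 and 13.6 ± 1.39 CPM, edgeR q = 0.0315 and q = 0.0493). In the 3 remaining comparisons inside clusters, ZT22 against ZT2, ZT6 against ZT10 and the combined contrast, edgeR called 0 of the 42, while 5, 6 and 15 had an unadjusted p under 0.05 and DESeq2 called 0, 1 and 6. The shares of all tested genes were 3.59%, 10.8% and 10.6% at an unadjusted p under 0.05 and 0.18%, 1.33% and 2.43% by DESeq2. In the ZT14 against ZT18 comparison edgeR called 2 of the 42, against 0.57% of all tested genes. DESeq2 called 5, against 4.46%, and 15 had an unadjusted p under 0.05, against 13.5%. The 42 had a median log2 difference of 0.61, against 0.01 over all tested genes. Of them 36 were positive, and the share of all tested genes that were positive is not given here.

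The genes with the pattern most like a member's were picked among 15750 genes by Pearson correlation of log2 CPM over the 18 libraries, which share clusters and depth, so that r is a description. For *Gria3* these were *Mef2c* (r = 0.968), a transcription factor, and *Chn1* (r = 0.966). *Mef2c* ran from 88.9 CPM at ZT6 to 552 CPM at ZT22 and *Chn1* from 200.7 to 1162 CPM at the same timepoints. Inside the clusters, over 6 libraries each, r between *Gria3* and these genes ranged from 0.776 to 0.982. For *Grik2* they were *Cacna1e* (r = 0.925), a calcium channel subunit, *Myo5a* (r = 0.906) and *Snx33* (r = 0.891), with r from 0.553 to 0.897 inside the clusters.

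The 300-base promoter windows of RefSeq (GRCm38.p6) held 6 of the 9 members, *Gria2*, *Gria4*, *Grik2*, *Grik3*, *Grik4* and *Grik5*. They were searched on both strands for the E-box CACGTG, the cAMP response element TGACGTCA and the D-box TTATGTAA, which occur in 7.15%, 1.79% and 0.938% of all 32851 windows. These letters were in 0 of the 6 windows.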

How the data were processed

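The data are 18 replicates of laser-captured SCN, each with 3 technical replicates (54 samples in all), grouped by the timepoint in their labels, and 0 sample columns were left unused. RNA was amplified before library preparation. The authors aligned reads with GSNAP to mm10 (GRCm38), counted them per gene with HTSeq 0.5.4p1, and deposited raw counts of 30031 genes with technical replicates combined. The second table deposited by the authors holds normalized signal for 31077 genes, counts divided by DESeq2 size factors; 100% of its values were whole multiples of 1 step (within 0.1 read), so reads were recovered as an alternative. No stranded counting is stated; exons of 4 members share bases with small RNA genes outside the count table.

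The 9 members and all gene lists were chosen with earlier results of these data known. A gene was tested where more than 6 replicates held 1 read or more, with edgeR 4.0.16 (R 4.3.3, TMM, quasi-likelihood F-test, 1 fit to 18 replicates, Benjamini-Hochberg over 18941 genes). JTK_CYCLE (period 24 hr, 6 lags, Bonferroni over lags) was rewritten in Python 3.11.15 with numpy 2.4.6. Alternatives were DESeq2 1.42.0, RLE and upper-quartile scaling, other filters, a replicate block, recovered reads, a limma 3.58.1 cosinor, other gene lengths and each replicate left out. Tests were checked on simulated data. Log2 CPM used a prior count of 2. Lengths, symbols (97.2% of identifiers) and coordinates came from GENCODE M21. Named outside the members are listed genes past the threshold, at most 4 per list and comparison, and the 3 genes most correlated with *Gria3* and with *Grik2*, the members of each family with the smallest p. Some genes that this rule names are not reported here. Intervals cover spread between pools only.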

Additional observations from a re-analysis of the deposited data

How the results depend on the processing

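Members called for time numbered 8 as reported, with DESeq2, RLE scaling or a filter of 10 counts in every replicate, 7 with upper-quartile scaling, no filter, the replicate block or recovered reads, and 6 to 8 with 1 replicate left out. The replicate block kept *Gria3* as the 1 call between ZT14 and ZT18 and lost *Grik4* for time. Letters A, B and C pair nothing in the labels, and deviations of same-letter libraries correlated between -0.191 and 0.104.

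With a cosinor regression 5 members cycled rather than 3, and the share of all tested genes is not given for that setting. DESeq2 called 3 members between ZT14 and ZT18 and 2 in the combined contrast, where no filter or the filter of 10 counts called 1 (*Gria3*); leaving out 1 replicate gave 0 to 1 in each, with 1 in the combined contrast without ZT10 C or ZT22 A. By the length of the longest coding transcript the mean shares were 51.5% (*Gria1*), 33.9% (*Gria2*), 6.583% (*Gria3*), 45.9% (*Grik1*) and 17.1% (*Grik3*), and as raw reads 40.2% (*Gria1*), 48.9% (*Gria2*), 6.18% (*Gria4*) and 26.3% (*Grik2*), since long genes yield more reads.

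Signs of small log2 differences turned in uncalled members. *Gria4* between ZT14 and ZT18 was -0.001036 with DESeq2, -0.001971 with RLE, -0.008395 with upper-quartile scaling, -0.01888 with no filter, and -0.08646 to 0.1941 with 1 replicate left out. *Grik1* between ZT6 and ZT10 was -0.2913 with recovered reads and -0.2491 to 0.2457 with 1 replicate left out. In the latter fits *Gria1* ranged from -0.184 to 0.1144 and *Grik3* from -0.2976 to 0.2122 (ZT22 minus ZT2), *Gria2* from -0.1705 to 0.006665, *Gria4* from -0.3147 to 0.01025 and *Grik2* from -0.09897 to 0.3085 (ZT6 minus ZT10), *Grik1* from -0.1621 to 0.3932 (ZT14 minus ZT18), and *Grik2* from -0.0003441 to 0.2122 (combined contrast). The causes were not tested.

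The SE is the uncertainty of a log2 difference in the edgeR fit, with 3 pools a timepoint. An uncalled difference larger than its SE is not thereby established. *Grik5* had the largest SE of the members in every comparison, and *Grik4* had the fewest reads, as few as 35 in a library.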
